A study of Mus musculus with 6 samples.

Results

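Beta-catenin (Ctnnb1), the TCF/LEF transcription factors and their close regulators were examined in HCC3-4 cells, a liver tumour line from mice with a MYC transgene. The genes were chosen by name, with earlier results of these data known: Ctnnb1, Tcf7, Tcf7l1, Tcf7l2, Lef1, Apc, Axin1, Axin2, Lgr4 and Rnf43. Of these 10 genes, 8 were among the 11866 genes of the table. The expression of Axin2 and Rnf43 was not analysed here. RNA captured by its poly(A) tail was sequenced from 6 libraries. In 3 of them (KD) the cells stably carried shSf3b3, a short hairpin directed at Sf3b3, and in the other 3 (PLKO) the pLKO.1-TRC negative control. All 6 libraries came from the same line, so the MYC background was shared by both groups, and the labels name a single knockdown construct and do not say whether the libraries were separate cultures. All p-values below thus rest on library-to-library spread alone, part of which may be technical. Sf3b3, a subunit of the SF3b splicing complex, fell in KD. It had 22.6, 28.7 and 29.2 FPKM (fragments per kilobase of transcript, scaled to the size of the library) in PLKO 1, 2 and 3 and 10.3, 9.56 and 13.9 FPKM in KD 1, 2 and 3, a log2 fold change of -1.26 (SE 0.23, limma adjusted p = 0.037). The limma adjusted p of Sf3b3 ran from 0.015 to 0.19 with 1 library left out.

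Canonical WNT signalling turns on the stability of beta-catenin. Without a WNT signal, a destruction complex built on the scaffolds AXIN1 and APC lets kinases mark beta-catenin for breakdown by the proteasome. With the signal the protein accumulates, enters the nucleus and binds TCF/LEF factors on DNA, which repress their target genes in its absence. In the liver this pathway sets the gene programme of hepatocytes around the central vein, and stabilising changes of beta-catenin are frequent in liver cancer. Because the protein is controlled by breakdown, the amount of Ctnnb1 RNA does not measure pathway activity.

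None of the 8 genes passed the test between KD and PLKO. The test was limma on log2 FPKM over 10770 genes, with a gene called at a Benjamini-Hochberg adjusted p under 0.05, and it called 314 genes in all (2.92%). Voom on reads recovered from the values also called 0 of the 8, against 308 of the 10770 tested genes. Of the 8 genes, 1 had an unadjusted p under 0.05, against 27.6% of all tested genes. That gene was Tcf7, which was lower in every KD library than in every PLKO library. The groups did not overlap for 1 of the 8 genes, Tcf7, while they did not overlap for 32.1% of all tested genes. Their log2 fold changes (KD minus PLKO) had a median of 0.15, with 5 above 0 and 3 below, beside -0.04 for all tested genes.

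**Figure D1:**
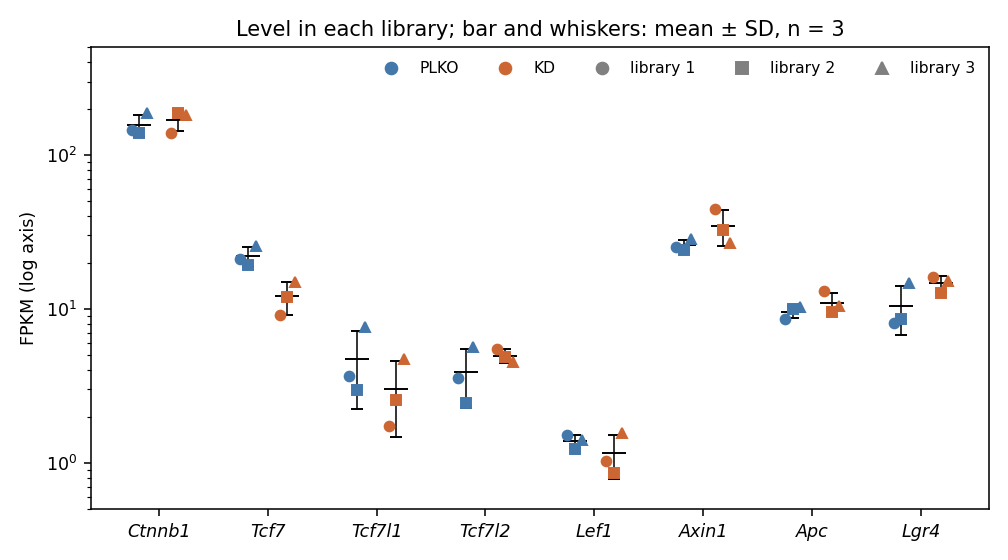
FPKM of the 8 genes on a log axis in the 3 PLKO (blue) and 3 KD (orange) libraries, with the library number given by the marker shape and the mean ± SD by the black bar and whiskers. Tcf7 lies between 19.3 and 25.7 FPKM in PLKO and between 9.14 and 15.0 FPKM in KD, and the groups of the other 7 genes overlap.

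The 8 genes were expressed at very different levels per length. Ctnnb1 was far above the rest, with a mean of 157 FPKM in PLKO, and its level lay at percentile 98.1 of all listed genes. Axin1 (25.9 FPKM in PLKO) and Tcf7 (22.1 FPKM) came next and overlapped in range. Lgr4 (10.5 FPKM) and Apc (9.60 FPKM) also overlapped, as did Tcf7l1 (4.74 FPKM) and Tcf7l2 (3.89 FPKM). Lef1 was lowest at 1.39 FPKM, at percentile 11.8. In KD the order differed in 2 places. Tcf7 (12.1 FPKM) stood below Lgr4 (14.7 FPKM) and Tcf7l1 (3.02 FPKM) below Tcf7l2 (4.98 FPKM), and both of these neighbour pairs overlapped in range.

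Ctnnb1 encodes beta-catenin, which links cadherins to actin at cell junctions as well as acting in the nucleus. It had 146, 138 and 186 FPKM in PLKO 1, 2 and 3 and 138, 188 and 183 FPKM in KD 1, 2 and 3. The groups overlapped over nearly their whole range: PLKO 3, KD 2 and KD 3 were high and the other libraries low. Limma gave Ctnnb1 a log2 fold change of 0.11 (SE 0.22, 95% interval -0.38 to 0.60, adjusted p = 0.76). The interval corresponds to a KD level between 0.77 and 1.52 times that of PLKO. With 1 library left out the log2 fold change of Ctnnb1 ran from 0.03 (without PLKO 2 or KD 2) to 0.25 (without KD 1). Ctnnb1 spans chr9:120929216-120960507 (plus strand, GRCm38, GENCODE M21) and was covered by 11084 to 16667 reads per library. Its exons overlap those of Ulk4 on the opposite strand and Mir7090 on the same strand. Use of strand in counting is not given in the sources used here, so reads of overlapping genes cannot be told apart.

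TCF7, also called TCF1, is the TCF/LEF factor best known from T cells and is itself a target of WNT signalling in several tissues. Tcf7 had 21.1, 19.3 and 25.7 FPKM in PLKO 1, 2 and 3 and 9.14, 11.97 and 15.0 FPKM in KD 1, 2 and 3. All 3 KD libraries were below all 3 PLKO libraries, with KD 1 lowest and PLKO 3 highest. The mean was 22.1 ± 3.30 FPKM (SD, n = 3) in PLKO and 12.1 ± 2.95 FPKM (n = 3) in KD. Its log2 fold change was -0.89 (SE 0.24, interval -1.44 to -0.34), a KD level of 53.9% of PLKO, with a limma adjusted p of 0.068. An exact two-sided permutation test gave p = 0.1, below which 6 libraries in groups of 3 cannot go. The replicate number was also used as a block, pairing KD and PLKO libraries of the same number, a pairing that the labels do not state. The pairing was taken from correlations in these same values, which do not settle how numbers 1 and 2 pair. With this block the limma adjusted p of Tcf7 was 0.017, and the fit called 19.3% of all tested genes. KD minus PLKO on the log2 scale was -1.21, -0.69 and -0.77 for numbers 1, 2 and 3. Tcf7 was also called without KD 3 (log2 fold change -1.06, limma adjusted p = 0.026), in a fit that called 16.2% of all tested genes, and without both libraries numbered 3 (-0.95, adjusted p = 0.018), where 27.9% were called. In bulk RNA, fewer cells with a transcript and less transcript per cell cannot be told apart. Tcf7 spans chr11:52252371-52283014 (minus strand), its exons overlap no other annotated gene, and 369 to 1067 reads fell on it per library. Summed stellate cell and fibroblast markers were also lower in every KD library (40.0 to 67.3 FPKM) than in every PLKO library (94.97 to 145 FPKM). Nearly all of this sum came from Col3a1 and Pdgfrb, and 5 of the 10 markers were listed. Col1a1 (0.59 to 1.58 FPKM over all libraries), Col1a2 (0.0831 to 0.655 FPKM) and Des (0.16 to 0.974 FPKM) were low. The groups of Des overlapped, while Col1a1 and Col1a2 were lower in every KD library. Acta2, Lrat, Dcn, Thy1 and Lum were not listed. Among all tested genes, 18.8% were lower in every KD library than in every PLKO library. The part of these markers in the Tcf7 values was not tested.

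The other TCF/LEF genes were expressed at lower levels and did not pass the test. Tcf7l1 encodes TCF3, which acts mostly as a repressor. It had 3.66, 2.97 and 7.60 FPKM in PLKO and 1.74, 2.57 and 4.73 FPKM in KD. Library 3 was the highest of its group in both cases, and KD 3 exceeded PLKO 1 and PLKO 2. Tcf7l1 had a log2 fold change of -0.65 (SE 0.45, interval -1.68 to 0.37, limma adjusted p = 0.37), and KD minus PLKO was below 0 for all 3 numbers (-1.07, -0.21 and -0.68). With the replicate block its adjusted p was 0.10. The size of the difference depended on single libraries, with log2 fold changes of -0.25 without PLKO 3, -0.32 without KD 1 and -1.04 without KD 3.

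Tcf7l2 encodes TCF4, the main partner of beta-catenin in the gut epithelium and a regulator of metabolic genes in the liver. It had 3.58, 2.45 and 5.64 FPKM in PLKO and 5.51, 4.90 and 4.53 FPKM in KD. The KD libraries were close together, and PLKO 3 was above all of them while PLKO 1 and PLKO 2 were below. Tcf7l2 had a log2 fold change of 0.44 (SE 0.32, interval -0.29 to 1.16, limma adjusted p = 0.40). It was 0.81 without both libraries numbered 3 (adjusted p = 0.051), 0.75 without PLKO 3 and 0.15 without PLKO 2. Lef1 encodes the lymphoid enhancer-binding factor, which is often switched on in tumours. It had 1.51, 1.24 and 1.42 FPKM in PLKO and 1.04, 0.861 and 1.56 FPKM in KD. KD 3 was the highest of all 6 libraries and KD 1 and KD 2 were the lowest, so the groups overlapped. For Lef1 the log2 fold change was -0.31 (SE 0.38, interval -1.18 to 0.55, limma adjusted p = 0.62) on 118 to 239 reads per library, and it was -0.12 without KD 2 and -0.55 without KD 3. Tcf7l1 spans chr6:72626378-72789254 (minus strand), Tcf7l2 chr19:55741820-55933654 (plus strand) and Lef1 chr3:131110471-131224356 (plus strand). Exons of Tcf7l1 overlap the antisense gene Gm15401 and those of Lef1 the antisense gene Gm43352.

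**Figure D2:**
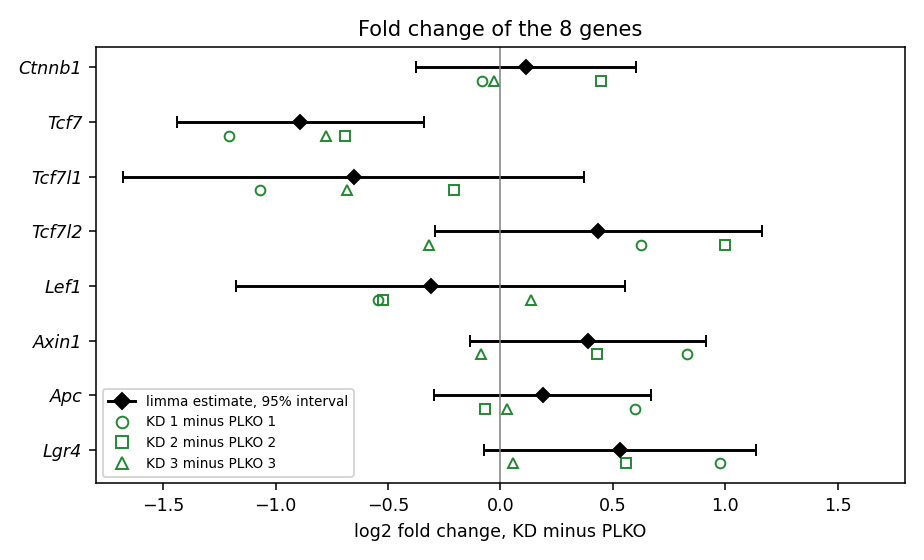
Log2 fold change (KD minus PLKO) of the 8 genes from limma (black diamonds) with 95% intervals, and the difference within each library number (open green symbols). The interval of Tcf7 runs from -1.44 to -0.34, and those of the other 7 genes include 0.

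The shares of Tcf7 and Tcf7l2 within the TCF/LEF family separated the groups, in measures chosen after the values were seen. The 4 genes summed to 29.9, 26.0 and 40.4 FPKM in PLKO 1, 2 and 3 and to 17.4, 20.3 and 25.9 FPKM in KD 1, 2 and 3. All KD sums were below all PLKO sums, KD 3 and PLKO 2 only barely, and the groups overlapped once each library was centred on its median (24.4 to 41.7 FPKM in PLKO and 17.6 to 26.9 FPKM in KD) or the values were quantile normalized. Tcf7 made up 70.7%, 74.4% and 63.7% of this sum in PLKO and 52.4%, 59.0% and 58.2% in KD. Tcf7l2 made up 11.98%, 9.43% and 14.0% in PLKO and 31.6%, 24.1% and 17.5% in KD. Neither share overlapped between the groups, whereas those of Tcf7l1 and Lef1 did. These measures are not independent, since a lower Tcf7 alone lowers the sum and its own share and raises that of Tcf7l2. The FPKM of Tcf7l2 itself overlapped between the groups. Among all tested genes, the groups did not overlap for 32.1%. The ratio of Tcf7 to Tcf7l2, which library scaling does not touch, was 5.90, 7.89 and 4.56 in PLKO and 1.66, 2.44 and 3.32 in KD, a difference of -1.33 on the log2 scale (exact two-sided permutation p = 0.1, the smallest possible). The difference was smallest between the libraries numbered 3, at -0.46, against -1.83 and -1.69 for numbers 1 and 2. The ratio of Tcf7l1 to Tcf7 overlapped between the groups, at 0.173, 0.154 and 0.295 in PLKO against 0.191, 0.215 and 0.315 in KD (exact two-sided permutation p = 0.5).

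**Figure D3:**
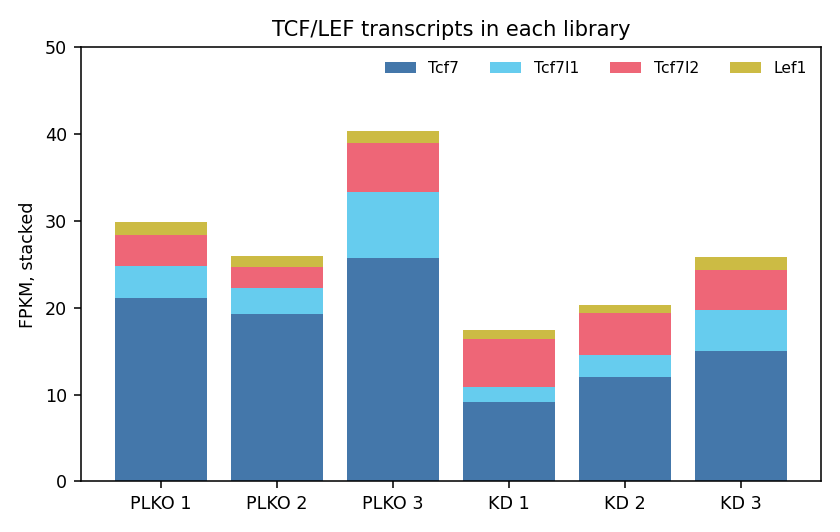
FPKM of Tcf7, Tcf7l1, Tcf7l2 and Lef1 stacked for each library. Tcf7 is the largest segment in all 6 libraries, and the Tcf7l2 segment takes 9.43% to 14.0% of the bar in PLKO and 17.5% to 31.6% in KD.

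TCF/LEF factors bind the core CTTTGA or, on the other strand, TCAAAG. RefSeq (GRCm38.p6) gave 15 start windows for 8 of the 10 genes, Axin2 and Rnf43 included. The 250 bases before the start held the core on either strand in 1 of the 15 windows, against 13.8% of all 32851 windows of this length. Of the 15 windows, 4 overlap annotated exons of their own gene, so they are not all upstream sequence. Neither of the 2 Tcf7 windows held a match, and one overlaps its exons. In the other (chr11:52283015-52283264, minus strand) a reading frame from an ATG runs without a stop over the last 165 bases, so it may hold coding sequence. Such frames are not particular to Tcf7: windows of Ctnnb1 (241 bases), Axin2 (177), Rnf43 (85), Lgr4 (62) and Tcf7l2 (46) hold them too. The match was in 1 of the 4 Lef1 windows, and the 3 others, those at the 5' end of the gene included, held none. The window with the match is shown because it alone holds the core. It is chr3:131156044-131156293 on the plus strand, lies within the gene outside its annotated exons and has 44.8% G or C, and its 2 matches, in capitals, begin 180 and 120 bases before the start. A match is a description of the letters, and binding was not measured.
Lef1: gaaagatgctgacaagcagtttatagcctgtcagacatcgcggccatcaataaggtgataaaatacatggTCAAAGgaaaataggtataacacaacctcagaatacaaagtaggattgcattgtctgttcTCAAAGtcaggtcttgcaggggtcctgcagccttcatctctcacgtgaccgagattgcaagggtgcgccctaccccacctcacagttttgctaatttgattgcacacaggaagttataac

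The scaffolds of the destruction complex did not pass the test. Axin1, the scaffold present in limiting amounts in many cells, had 25.1, 24.3 and 28.4 FPKM in PLKO and 44.6, 32.7 and 26.7 FPKM in KD. KD 1 and KD 2 were above all PLKO libraries and KD 3 was below PLKO 3. Axin1 had a log2 fold change of 0.39 (SE 0.23, interval -0.14 to 0.92, limma adjusted p = 0.30), and it was 0.19 without KD 1 and 0.63 without both libraries numbered 3. After quantile normalization the groups of Axin1 no longer overlapped. Before it the groups did not overlap for 32.1% of all tested genes, and the share after it was not worked out. Apc, the large scaffold lost in most colorectal cancers, had 8.57, 10.0 and 10.2 FPKM in PLKO and 12.99, 9.54 and 10.4 FPKM in KD. KD 1 was high and the other 5 libraries lay close together. Apc had a log2 fold change of 0.19 (SE 0.21, interval -0.30 to 0.67, limma adjusted p = 0.59), and it was 0.06 without KD 1, 0.11 without PLKO 1 and 0.28 without KD 2. Axin1 spans chr17:26138688-26195811 and Apc chr18:34220924-34322552 (both plus strand), with 1550 to 2639 and 2379 to 3162 reads per library.

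Lgr4 encodes a receptor for R-spondins, which protect WNT receptors from removal at the cell surface. It had 8.16, 8.58 and 14.7 FPKM in PLKO and 16.1, 12.7 and 15.3 FPKM in KD. PLKO 1 and PLKO 2 were below all KD libraries, and PLKO 3 lay within the KD range. Lgr4 had a log2 fold change of 0.53 (SE 0.27, interval -0.07 to 1.14, limma adjusted p = 0.23). It was 0.98, 0.56 and 0.05 for numbers 1, 2 and 3, and the limma adjusted p with the replicate block was 0.13. It was 0.80 without PLKO 3. Without both libraries numbered 3 it was 0.77 and Lgr4 was called (limma adjusted p = 0.034), in a fit that called 27.9% of all tested genes. Lgr4 spans chr2:109917647-110014257 (plus strand) and was covered by 842 to 1573 reads per library.

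PLKO 3 was the highest PLKO library for 7 of the 8 genes, all except Lef1, against 32.7% of all tested genes. KD 3 was the highest KD library for Tcf7, Tcf7l1 and Lef1, against 40.4% of all tested genes for 3 of 8 here. The differences within numbers had the same sign for all 3 numbers in 3 of the 8 genes (Tcf7, Tcf7l1 and Lgr4), against 55.3% of all tested genes. The part of the libraries numbered 3 in these results was not tested beyond leaving them out.

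**Figure D4:**
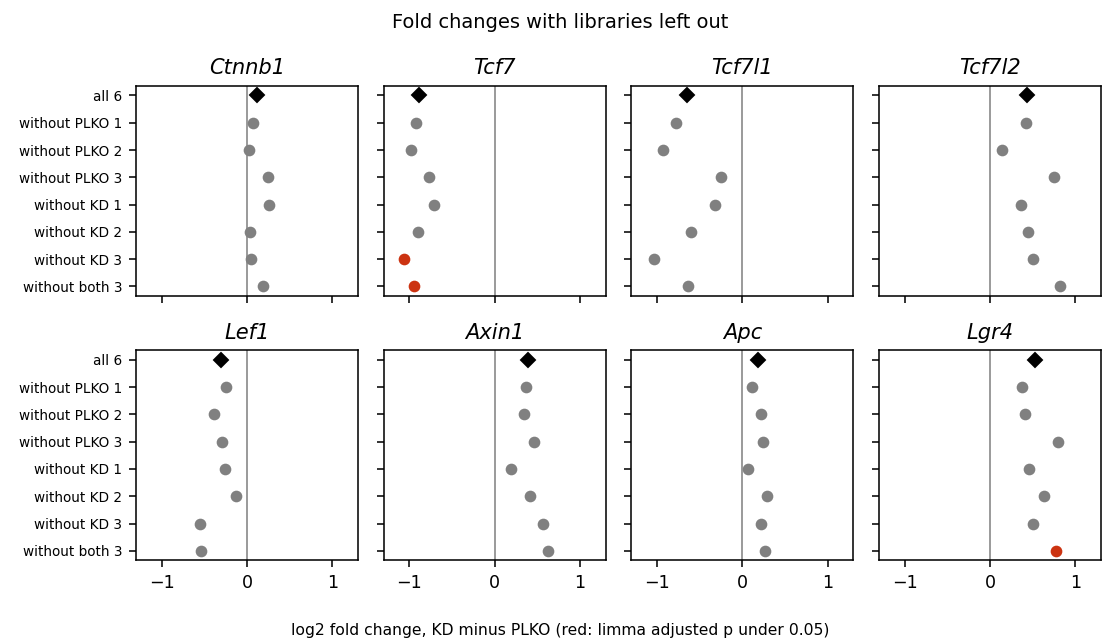
Log2 fold change (KD minus PLKO) of each gene from limma with all 6 libraries (black diamonds) and with libraries left out (circles, red where the adjusted p is under 0.05). Tcf7 stays between -1.06 and -0.71, Tcf7l1 runs from -1.04 to -0.25, and each gene keeps its sign in the fits shown.

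Around these 8 genes, 8 lists of WNT pathway genes named 154 further genes, of which 104 were listed and 97 tested. Limma called 1 of the 97 higher (Cd44) and none lower, against 1.12% and 1.79% of all tested genes (21 of the 97 had an unadjusted p under 0.05), and the replicate block called 8 higher and 5 lower, against 8.19% and 11.1%. Voom on recovered reads called Cd44 and Fzd3 among the 97, against 308 of the 10770 tested genes. The groups did not overlap for 8 genes that were higher and 14 that were lower in KD, against 13.4% and 18.8% of all tested genes. The median log2 fold change of the 97 genes was -0.01.

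Of 7 tested ligands, secretion factors and R-spondins, 6 had a log2 fold change below 0, with a median of -0.60 and none called by limma (adjusted p from 0.14, 1 at an unadjusted p under 0.05, 0 called by voom). Wnt4 had 2.57, 3.79 and 4.07 FPKM in PLKO and 1.88, 1.76 and 2.42 FPKM in KD, groups that did not overlap (log2 fold change -0.77, limma adjusted p = 0.14). Wnt11, a ligand of cell movement pathways, was highest in the libraries numbered 3. It had 2.02, 3.33 and 8.23 FPKM in PLKO and 0.764, 1.04 and 5.72 FPKM in KD, with a log2 fold change of -1.20 and a limma adjusted p of 0.33, or 0.020 with the replicate block. Porcn, the acyltransferase that makes WNT proteins secretable, and Rspo1, an LGR4 ligand, stood at -1.06 (limma adjusted p = 0.22) and -0.60 (adjusted p = 0.34).

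Receptors had differences in both directions, and limma called none of the 12 tested (4 at an unadjusted p under 0.05), while voom called 1, Fzd3. Fzd3, a Frizzled receptor, had 1.52, 1.62 and 2.38 FPKM in PLKO and 8.02, 6.15 and 3.38 FPKM in KD (log2 fold change 1.61, SE 0.37, limma adjusted p = 0.051). Lrp6, the coreceptor that passes the signal to AXIN1, had 8.58, 9.55 and 14.5 FPKM in PLKO and 25.2, 19.8 and 18.3 FPKM in KD (0.98, SE 0.26, adjusted p = 0.063). In both genes every KD library exceeded every PLKO library. Ryk had lower values in every KD library (-0.57, limma adjusted p = 0.12), and Fzd9 had a log2 fold change of -1.07 (adjusted p = 0.16). With the replicate block Fzd3, Lrp6 and Fzd9 were called (limma adjusted p = 0.0096, 0.020 and 0.024). Of 5 tested inhibitors none was called by limma (1 at an unadjusted p under 0.05) or by voom. Notum, a secreted enzyme that inactivates WNT proteins, had 5.21, 2.86 and 4.64 FPKM in PLKO and 1.07, 2.83 and 2.46 FPKM in KD (-1.07, adjusted p = 0.14), and the gap between PLKO 2 and KD 2 was small. Apcdd1, Tmem131l and Znrf3, the ubiquitin ligase that removes WNT receptors, stood at 0.24, 0.30 and 0.22 on the log2 scale (limma adjusted p from 0.47 to 0.62).

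Within the cytoplasm, limma called none of 24 tested dishevelled proteins, kinases and ubiquitin ligase parts (5 at an unadjusted p under 0.05) and voom called 0, and they had a median log2 fold change of 0.10. The casein kinase genes Csnk1e and Csnk1a1 had opposite signs. Csnk1e, whose kinase promotes the signal, had 12.1, 16.7 and 10.3 FPKM in PLKO and 21.3, 22.9 and 17.3 FPKM in KD (0.67, limma adjusted p = 0.12, and 0.045 with the block). Csnk1a1, the priming kinase of the destruction complex, had 47.3, 53.5 and 48.9 FPKM in PLKO and 32.7, 34.7 and 41.1 FPKM in KD (-0.47, adjusted p = 0.15). Siah1a, a ubiquitin ligase, and Csnk1g1, a further casein kinase, stood at -0.73 (limma adjusted p = 0.12) and 0.52 (adjusted p = 0.16) on the log2 scale, and their groups did not overlap. Of 23 tested nuclear cofactors none was called by limma (6 at an unadjusted p under 0.05) or by voom, and their median was -0.07. Bcl9, which bridges beta-catenin to Pygopus, had 8.49, 9.06 and 8.32 FPKM in PLKO and 15.4, 14.8 and 13.3 FPKM in KD (0.75, SE 0.19, adjusted p = 0.062). Pygo2, which encodes a Pygopus protein, had a log2 fold change of 0.60 (limma adjusted p = 0.091), Ruvbl1, an ATPase that binds beta-catenin, of 0.76 (adjusted p = 0.092) and Cdc73, a subunit of the PAF1 complex, of -0.93 (adjusted p = 0.088). With the replicate block Bcl9, Cdc73 and Hipk2 were called (limma adjusted p = 0.030, 0.022 and 0.0067).

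Among 19 tested genes reported elsewhere as beta-catenin targets, 9 had a log2 fold change above 0 and 10 below, with a median of -0.16. Cd44, a hyaluronan receptor, rose from 47.7, 30.4 and 35.4 FPKM in PLKO to 82.2, 91.0 and 66.1 FPKM in KD (1.09, SE 0.23, limma adjusted p = 0.048). It was the 1 call of the list, by voom too. Its adjusted p ran from 0.021 to 0.21 with 1 library left out, and without PLKO 1, PLKO 2, KD 1 or KD 2 limma called no gene at all. Tnfrsf19, a receptor of the TNF family also called TROY, had 2.82, 7.71 and 5.46 FPKM in PLKO and 1.84, 1.33 and 1.44 FPKM in KD (-1.69, SE 0.39, adjusted p = 0.052). Fosl1, an AP-1 subunit, had 41.1, 45.4 and 99.9 FPKM in PLKO and 88.8, 90.2 and 152 FPKM in KD (0.90, limma adjusted p = 0.15). With the replicate block Cd44, Fosl1 and Plaur were higher and Tnfrsf19 lower (limma adjusted p from 0.0085 to 0.034). Of 16 pericentral liver genes 6 were listed and 5 tested, and none was called by limma (1 at an unadjusted p under 0.05) or by voom. Rgn, a calcium-binding protein of liver, had 1.48, 1.97 and 1.57 FPKM in PLKO and 0.397, 0.389 and 0.855 FPKM in KD (-1.71, limma adjusted p = 0.070, and 0.024 with the block). Only 8, 8 and 22 reads fell on Rgn in KD (41, 51 and 38 in PLKO), so the size of its fold change is uncertain. Glul, the glutamine synthetase of pericentral hepatocytes, had a log2 fold change of 0.02. Aldh3a2, Tbx3 and Oat stood at -0.45, 0.53 and 0.36 (limma adjusted p from 0.19 to 0.40). At cell junctions, none of 6 tested partners of beta-catenin was called by limma (0 at an unadjusted p under 0.05) or by voom. Ctnnal1 had a log2 fold change of -0.58, Ctnna1 (alpha-catenin) of 0.36, Vcl (vinculin) of 0.31 and Cdh2 (N-cadherin) of 0.15.

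**Figure D5:**
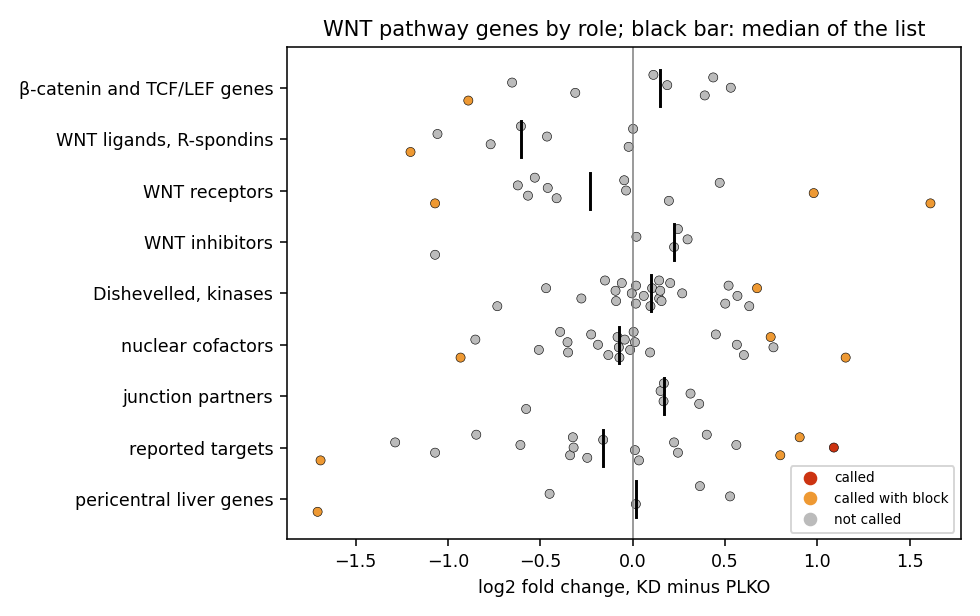
Log2 fold change (KD minus PLKO) of each tested gene, by role in the WNT pathway, with the median of each list as a black bar. Cd44 is called (red), 13 further dots are called with the replicate block but not without it (orange), Tcf7 among them, and the other genes are called in neither fit (grey).

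The genes whose profiles across the 6 libraries were most like those of Ctnnb1 and Tcf7 were found by the root mean square difference of log2 values after each gene was centred on its own mean. For Tcf7 they were Ube2e2 (0.0613), Echdc2 (0.0687) and Pdgfrb (0.0777). For Ctnnb1 they were the ribosomal protein pseudogenes Rpl10a.ps1 (0.0417) and Rpl7a.ps11 (0.0469) and the mitochondrial gene mt.Nd4 (0.0533). These are descriptions of 6 libraries, taken from 10770 genes.

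Of 10 hepatocyte markers, none was among the listed genes. Of 10 markers of hepatoblasts and bile duct cells 6 were listed, with summed levels of 186 to 324 FPKM in PLKO and 187 to 333 FPKM in KD. None of the 5 tested was called by limma (1 at an unadjusted p under 0.05), by voom or with the replicate block. Krt18 (log2 fold change 0.62, limma adjusted p = 0.10) and Afp (0.302 to 0.467 FPKM in PLKO, 0.814 to 1.98 FPKM in KD, not tested) were higher in every KD library. So were 13.4% of all tested genes. The groups of Krt19, Sox9, Spp1 and Krt8 overlapped. Of 10 stellate cell and fibroblast markers 5 were listed, and they summed to 94.97 to 145 FPKM in PLKO and 40.0 to 67.3 FPKM in KD, nearly all from Col3a1 and Pdgfrb. Col1a1, Col1a2 and Des reached at most 1.58 FPKM in any library. None of the 3 tested was called by limma (3 at an unadjusted p under 0.05), voom called Col3a1, and the replicate block called Col3a1 (log2 fold change -1.24, limma adjusted p = 0.0046) and Pdgfrb (-0.96, adjusted p = 0.012). Of 10 leukocyte markers Cd68 and Cd79a were listed, and they summed to 10.1 to 42.2 FPKM in PLKO and 46.9 to 98.9 FPKM in KD. Cd68, a macrophage marker that made up nearly all of this sum, had a log2 fold change of 1.76 (limma adjusted p = 0.076, and 0.0018 with the block). Cd79a, a part of the B cell receptor, was called by limma (log2 fold change 3.77, adjusted p = 0.047), from 0.0828 to 0.950 FPKM in PLKO and 2.51 to 4.88 FPKM in KD. It had only 4, 0 and 20 reads in PLKO 1, 2 and 3, so the size of its fold change is uncertain. The limma adjusted p of Cd79a ran from 0.0078 to 0.19 with 1 library left out. Ptprc, the general leukocyte marker, was not among the listed genes. Of 10 endothelial markers 2 were listed, at summed levels of 0.851 to 0.986 FPKM in PLKO and 0.709 to 1.16 FPKM in KD. The part of these markers in the values of Tcf7 and the other genes was not tested.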

How the data were processed

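RNA-seq values of 6 HCC3-4 libraries (3 KD, 3 PLKO) were used. The authors deposited 1 table of log2 FPKM for 11866 genes. Genome build GRCm38 and FastQC 0.11.7 are named per the submitters' processing notes, with aligner, read counter, strand setting and gene filter not given in the sources used here. Values as deposited, in log2 units, run from -7.85 to 13.17 and hold a prior with a mean of 2 reads, so fold changes of low genes are understated. Reads were recovered from the steps of the low values and GENCODE M21 exonic lengths or, for genes where these gave no whole reads, a scanned length: 100% of the genes gave whole reads in all libraries (tolerance 0.01 reads), with 15140441 to 17566101 reads per library. Reads serve here as depth and in 1 alternative.

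Genes averaging 1 FPKM or more (10770) were tested with limma 3.58.1 (R 4.3.3), using its intensity trend for the variance, with the group as the only term and Benjamini-Hochberg adjustment over all tested genes. The deposited log2 values were turned back into FPKM for printing. Errors are SD over libraries or SE of the limma estimate, and intervals are 95%. When tested on simulated data with known changes, limma called most of the larger and few of the smaller ones, so a gene that was not called may still differ. Deviations from the group means correlated between KD and PLKO libraries of equal number (0.18, 0.29 and 0.50, all above 0.1), so the numbers were taken as pairs in the fit with a block. The labels do not state this pairing, and some unequal numbers correlated as well (PLKO 2 with KD 1 at 0.30). PLKO 1 correlated more with KD 2 (0.27) than with KD 1. Libraries numbered 3 correlated negatively with those of the other group numbered 1 and 2 (-0.43 to -0.28). The correlations thus set the libraries numbered 3 apart but do not settle how numbers 1 and 2 pair.

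The genes and lists were chosen with earlier results of these data known. All listed members were named, with up to 4 tested genes of each list with the lowest limma p and any called one, Sf3b3, and the 3 nearest profiles of Ctnnb1 and of the member with the lowest p.  Hipk2, Plaur, Glul and the ratios within the TCF/LEF family were named after their values were seen. Alternatives covered scale, filter, normalization, variance model, library weights, the block, recovered reads and left-out libraries.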

Additional observations from a re-analysis of the deposited data

How the results depend on the processing

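Each of the 8 genes kept the sign of its log2 fold change under all alternatives run for it (125 values over 16 settings, of which 5 were newly called and none reversed). The newly called values were those of Tcf7 with the replicate block, with array weights, without KD 3 and without both libraries numbered 3, and of Lgr4 in the last of these. The number of the 8 genes called was 0 with all libraries, 1 with the replicate block, 1 with array weights, 2 without both libraries numbered 3 and 0 to 1 with 1 library left out. The limma adjusted p of Tcf7 ran from 0.0067 to 0.23 over its alternatives. Over all tested genes, limma called 314 with all libraries, 2080 with the replicate block, 3599 with array weights, 151 without the variance trend, 3009 without both libraries numbered 3 and 0 to 1744 with 1 library left out. It was 0 without PLKO 1, PLKO 2, KD 1 or KD 2 (1793 to 2315 genes at an unadjusted p under 0.05). The groups did not overlap for 2 of the 8 genes, Tcf7 and Axin1, after quantile normalization, against 1 before. The share of all tested genes was 32.1% before it and was not worked out after it. The cause of these differences was not tested. The block changed no call of the other 7 genes.

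Array weights by the default likelihood method did not converge, so weights estimated gene by gene were used, which was chosen after seeing the data and gave KD 2 a weight of 5.63. Recovered reads were run with voom and the library sizes behind the deposited values, also chosen after seeing the data, and the planned run with TMM factors was not run. With a mean FPKM of at least 5, 5 of the 8 genes were tested. Lef1 and Tcf7l1, with as few as 118 and 104 reads in a library, had the least depth.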
